A study of Rattus norvegicus with 6 samples.

Results

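The genes described here mark microglia and macrophages, the phagocytes of the nervous system, in dissociated rat spinal cultures. A list of 35 such genes was set by name, and a gene entered when the annotation of the array paired a probe set with it alone, which held for 30 of the 35 and for 14217 genes in all. P2ry13, Siglech, Spi1, Msr1 and Siglec1 had no such probe set and were not measured. Spinal cords of rats at postnatal day 1 to 4, Sprague-Dawley by the sample labels and Wistar by the methods, were dissociated and plated either on glass coated with polyornithine (control) or on a film of multiwall carbon nanotubes (CNT), with horse serum and nerve growth factor in the medium of both. Cultures were taken after 8 days in vitro, 3 control and 3 CNT, and each went on an Affymetrix array of its own. Of the 30 genes, 26 lay above the dimmest 30% of all genes, among them Csf1r, P2ry12, Tmem119 and Aif1. This ranks their signal and is not a detection call. The cultures hold neurons and glia together, and a lower value can mean fewer microglia or less RNA per microglial cell, which cannot be told apart here. All values are log2 expression made by the authors with RMA, a log2 difference of 1 is a 2-fold difference, and the level of a probe set can be compared between arrays but not with that of another probe set.

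Microglia enter the nervous system early in development and live on signals through the receptor Csf1r, while the transcription factor PU.1, the product of Spi1, holds their identity. At rest they carry receptors that read their surroundings, such as Cx3cr1 for the neuronal ligand fractalkine and P2ry12 for nucleotides. Upon contact with debris or microbes they move, engulf and digest, for which they use integrins, Fc receptors, an actin cytoskeleton shared with other leukocytes, and an oxidase of the phagosome. Macrophages of the meninges and vessels carry scavenger receptors such as Mrc1, Cd163 and Stab1, and a dissociated spinal culture can hold both kinds of cell.

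As a group, these genes had somewhat higher mean values in CNT cultures over all 6 arrays. The difference was gone when control 1 and CNT 2 were both left out. The median log2 fold change was then 0.04, against 0.03 over all genes, with 16 of 30 genes positive, against 59.7% of all genes. These 2 arrays held the lowest control mean and the highest CNT mean of the genes, so leaving them out had to narrow the difference. With the beta-actin difference described below as a covariate over all 6 arrays, the median was 0.43 and 27 genes were positive. In the main fit, without a covariate, the log2 fold change was positive for 26 of the 30 genes, against 58.5% of all genes tested. It is CNT minus control, with SE for its standard error, and its median was 0.32 against 0.03 over all genes. The largest differences were those of the high-affinity Fc receptor gene Fcgr1a (fold 1.90), the integrin gene Itgb2 (fold 1.80) and the actin regulator gene Coro1a (fold 1.74). A fold of 1.5 was exceeded by 7 genes, and the share of all genes past that fold was not worked out. At the other end, the scavenger receptor gene Stab1 had a fold of 0.67 and the microglial membrane protein gene Tmem119 one of 0.787. The threshold, an adjusted p of 0.05 by limma, was passed by none of the 30 and by 0% of all 14217 genes, and each of the 30 had an adjusted p of 0.999. At an unadjusted p under 0.05, limma gave 3 of the 30 genes higher (Fcgr1a, Coro1a and Lyz2), where the share over all genes was 2.41%, and none lower, where it was 0.71%. For 3 genes the lowest CNT culture exceeded the highest control culture (Fcgr1a, Tyrobp and Lyz2), against 5.94% of all genes, and for none did the highest CNT culture lie below the lowest control culture, against 2.05%. Both counts of 3 are 10% of the genes measured. A rank product was run over cultures paired by number. No source says whether the numbers pair the samples, and the methods took each sample as a separate origin. This rank product put 73 genes past the same threshold as higher and 5 as lower, with none of the 30 among them. The smallest two-sided p that exact permutation allows for 1 gene with these group sizes is 0.1. Leaving out control 1 brought the median to 0.10, leaving out CNT 2 to 0.17 and leaving out CNT 3 to 0.52.

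**Figure D1:**
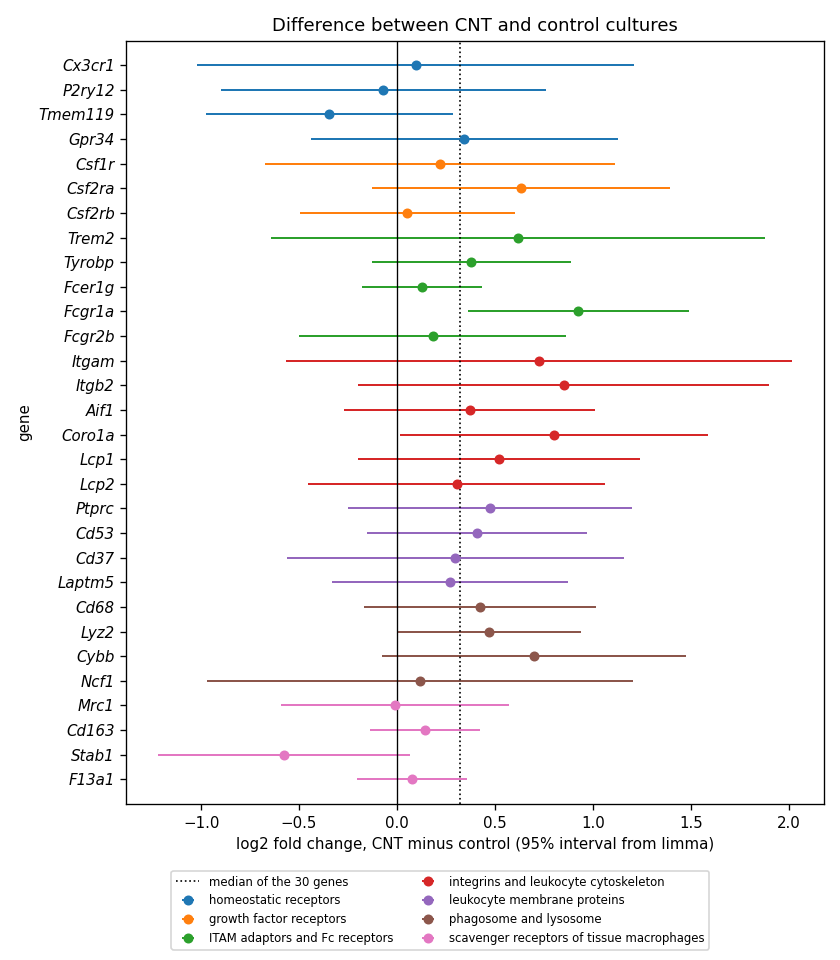
Log2 fold change (CNT minus control) of each of the 30 genes, grouped by role, with its 95% interval from limma. The dotted line is the median of the 30 genes, 0.32, and 27 of the intervals include 0.

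The mean of the 30 genes on an array, relative to the 6 arrays, was -0.58, 0.02 and 0.08 in control cultures 1, 2 and 3 and 0.24, 0.37 and -0.13 in CNT cultures 1, 2 and 3. Control 1 stood below all others, and CNT 3 lay below control 2 and control 3, so the groups overlapped. Control 1 was the lowest control array for 27 of the 30 genes, where it was the lowest for 25.9% of all genes, and the lowest of all 6 arrays for 23. CNT 3 was the lowest CNT array for 24 of the 30 genes, and for 45.7% of all genes. CNT 2 was the highest CNT array for 19 of the 30 genes, and for 34.7% of all genes. It was the highest of all 6 arrays for 15 genes. Set against control 1, CNT 2 was higher for 29 genes, and for 55% of all genes, with a median difference of 1.02 for the 30. Against control 3, CNT 3 was higher for 8 genes, and for 57.4% of all genes, with a median difference of -0.22. The SD was larger among control than among CNT cultures for 19 of the 30 genes. The difference between the means was above the SD of both groups for 6 genes. No share of all genes was worked out for the counts over all 6 arrays or for those with SDs.

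**Figure D2:**
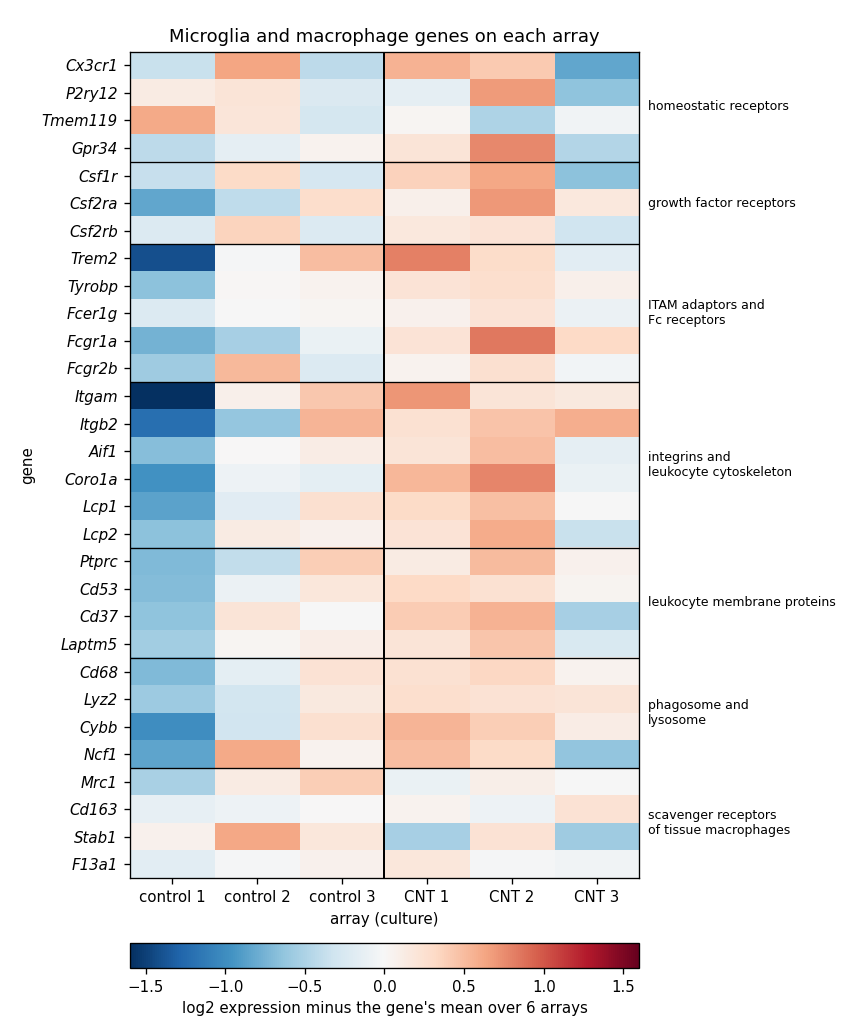
Log2 expression of the 30 genes (rows, by role) on the 6 arrays (columns), each relative to its mean over the 6 arrays, in blue for lower and red for higher. Control 1 is the lowest of the 6 arrays for 23 genes and CNT 2 the highest for 15.

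Control 1 and CNT 2 were the arrays with the widest gap between the 3' and the 5' probe set of beta-actin, 2.20 log2 in both, against 0.62 to 0.66 in the other control and 0.92 to 1.72 in the other CNT cultures. A wide gap is a sign of shortened RNA. The group difference was gone without these 2 arrays. They held the lowest control mean and the highest CNT mean of the genes, so leaving them out had to narrow the difference. With the beta-actin difference as a covariate over all 6 arrays, the median was 0.43 and 27 were positive. Of 11 fibroblast and meningeal genes (Col1a1, Dcn, Fbln2 and others), all were lower in the CNT mean (median log2 difference -0.80), and their mean was highest in control 1 (0.68) and lowest in CNT 2 (-1.45). These are the arrays in which the microglial genes were lowest and highest. Over the other arrays the fibroblast mean was 0.28 to 0.29 in control and -0.06 to 0.26 in CNT cultures. The mean of 19 interferon response genes was -1.34, -2.06 and 0.32 in control and 0.60, 1.03 and 1.45 in CNT cultures, so CNT 3, the lowest CNT culture for microglial genes, was the highest for interferon genes. The part of RNA quality, of fibroblasts and of the interferon response in the microglial values was not tested.

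**Figure D3:**
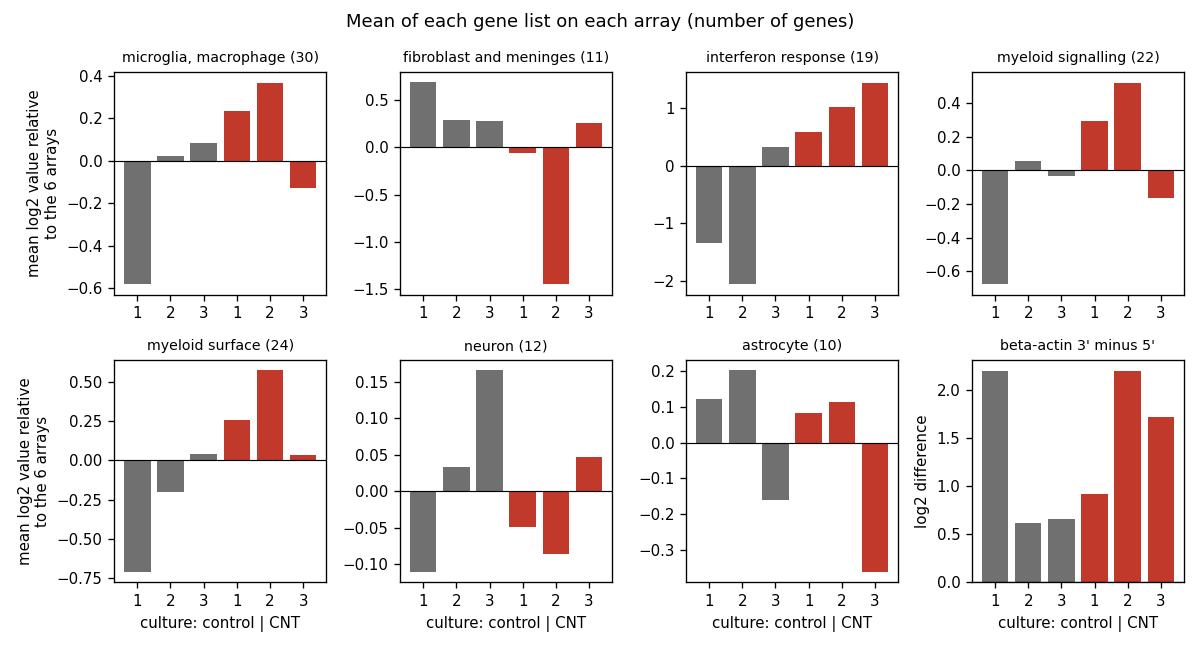
Mean of 7 gene lists on each array relative to the 6 arrays, and the log2 difference between the 3' and 5' probe sets of beta-actin, in grey for control and in red for CNT cultures. Microglia and macrophage genes are at -0.58 in control 1 and 0.37 in CNT 2, and fibroblast genes at 0.68 and -1.45.

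Among the receptors of resting microglia, no common direction was seen. Their 4 measured genes had a median log2 fold change of 0.01, with Gpr34, a receptor for lysophosphatidylserine, and Cx3cr1 positive and P2ry12 and Tmem119 negative. The log2 expression of Cx3cr1 was 7.71, 8.70 and 7.64 in control and 8.62, 8.49 and 7.23 in CNT cultures 1, 2 and 3. CNT 3 was the lowest array and control 2 the highest, and the log2 fold change of 0.09 (SE 0.46, 95% interval -1.02 to 1.21) had an interval that reached past a 2-fold difference on both sides. P2ry12 was at 10.81, 10.88 and 10.45 in control and at 10.54, 11.36 and 10.03 in CNT cultures. Its lowest and highest values were both in CNT cultures, and the log2 fold change was -0.07 (SE 0.34). A second P2ry12 probe set gave -0.29 (SE 0.39). Tmem119 was at 11.36, 10.95 and 10.48 in control and at 10.79, 10.26 and 10.71 in CNT cultures. It was the only one of the 30 genes with its highest value in control 1 and its lowest in CNT 2, where 12 of the 30 had the reverse, and its log2 fold change was -0.34 (SE 0.26). This became 0.03 without control 1 and CNT 2. The mean of the 11 fibroblast and meningeal genes was also highest in control 1 (0.68) and lowest in CNT 2 (-1.45). A link between them and Tmem119 was not tested. Gpr34 was at 10.17 to 10.65 in control and at 10.81, 11.37 and 10.13 in CNT cultures, with a log2 fold change of 0.34 (SE 0.32). Over the 4 genes, the mean was lowest in CNT 3 (-0.50) and next in control 3 (-0.22).

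The growth factor receptors differed among themselves. Csf1r, on which microglia depend for survival, was at 12.10, 12.78 and 12.21 in control and at 12.83, 13.09 and 11.81 in CNT cultures. CNT 3 was the lowest of the 6 arrays and CNT 2 the highest, and the log2 fold change of 0.22 (SE 0.37, 95% interval -0.68 to 1.11) turned to -0.04 without CNT 2. Csf2ra, the ligand-binding chain of the receptor for granulocyte-macrophage colony-stimulating factor, was at 10.49, 10.91 and 11.60 in control and at 11.40, 12.01 and 11.49 in CNT cultures. The groups overlapped through control 3, and the log2 fold change of 0.63 (SE 0.31) was 0.38 without control 1 and 0.19 without control 1 and CNT 2. Csf2rb, the signalling chain it shares with other cytokine receptors, had a log2 fold change of 0.05 (SE 0.23) with all values from 6.61 to 7.29.

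The genes of ITAM adaptors, through which activating receptors signal, and those of Trem2 and the Fc receptors were all positive. Tyrobp encodes the adaptor of Trem2, a receptor for lipids and debris, and Fcer1g that of activating Fc receptors. Fcgr1a, which binds monomeric IgG, was at 10.85, 11.07 and 11.49 in control and at 11.82, 12.45 and 11.92 in CNT cultures. All CNT cultures were above all control cultures, and the log2 fold change of 0.93 (SE 0.23, 95% interval 0.36 to 1.49, adjusted p = 0.999 from limma) was the largest of the 30 genes. It stayed between 0.73 and 1.10 as each array was left out, and was 0.59 without control 1 and CNT 2. Its adjusted p from limma ranged from 0.310 to 1 over all alternatives. Tyrobp was at 12.53, 13.21 and 13.25 in control and at 13.40, 13.45 and 13.27 in CNT cultures. Its groups were separated, with CNT 3 barely above control 3, and its log2 fold change of 0.38 (SE 0.21) was 0.15 without control 1. Trem2 was at 10.76, 12.15 and 12.65 in control and at 12.97, 12.46 and 11.99 in CNT cultures. Control 1 stood apart from the other 5 arrays, and the log2 fold change of 0.62 (SE 0.52) was 0.07 without it. A second probe set of Trem2 gave 0.73 (SE 0.39). Fcer1g had a log2 fold change of 0.13 (SE 0.13) and the inhibitory receptor gene Fcgr2b one of 0.18 (SE 0.28).

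**Figure D4:**
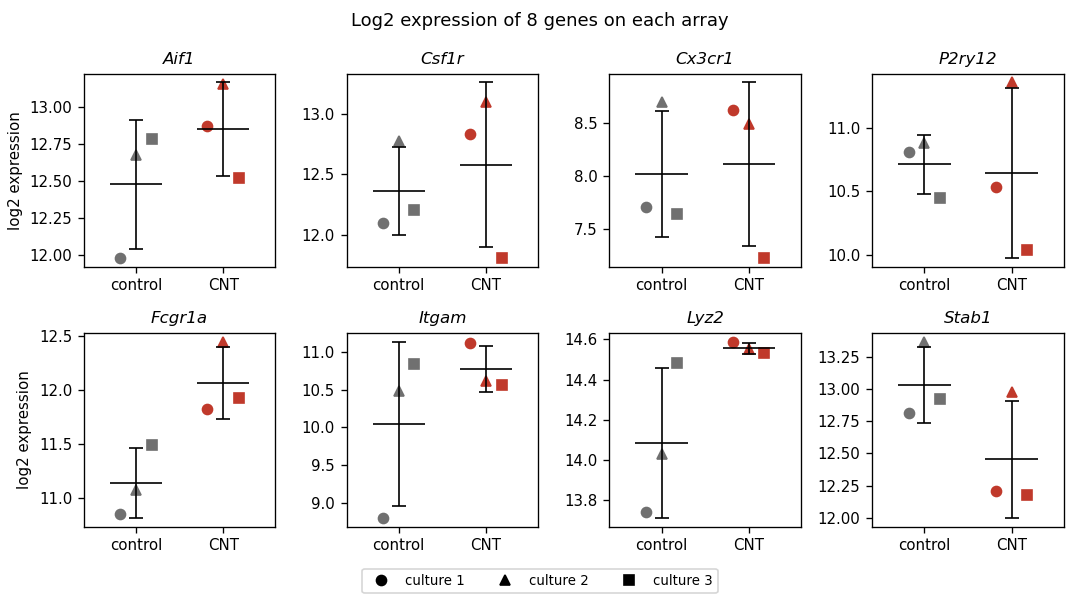
Log2 expression of Aif1, Csf1r, Cx3cr1, P2ry12, Fcgr1a, Itgam, Lyz2 and Stab1 by array, in grey for control and in red for CNT. Symbols mark culture numbers, and no source says whether a shared number pairs the cultures. Lines mark the mean of 3 cultures with its SD as a bar, and the groups are separated for Fcgr1a and Lyz2 and overlap for the other 6 genes.

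Genes of the integrins and the leukocyte cytoskeleton had the highest median of the roles, 0.62 over 6 genes, all positive. Aif1 encodes Iba1, the protein by which microglia are stained, and was at 11.98, 12.67 and 12.78 in control and at 12.87, 13.15 and 12.52 in CNT cultures. CNT 3 lay below 2 of the 3 control cultures, and the fold of 1.29 (log2 fold change 0.37, SE 0.26, 95% interval -0.27 to 1.01) was not past the test. It was 0.12 log2 without control 1 and -0.03 without control 1 and CNT 2, and a second Aif1 probe set, with a mean level of 7.78, gave -0.01 (SE 0.13). Itgam and Itgb2 are the chains of complement receptor 3. Itgam was at 8.81, 10.49 and 10.84 in control and at 11.12, 10.62 and 10.57 in CNT cultures, and control 1 set its log2 fold change of 0.72 (SE 0.53), which was 0.11 without it. Itgb2 was at 10.80, 11.38 and 12.55 in control and at 12.24, 12.46 and 12.58 in CNT cultures. Control 3 lay within the CNT values, and the log2 fold change was 0.85 (SE 0.43), or 1.34 without control 3 (adjusted p = 0.213 from limma), the smallest adjusted p of any of the 30 genes under the alternatives. It was 0.46 without control 1 and 0.45 without control 1 and CNT 2. Coro1a, an actin regulator of leukocytes, was at 11.33, 12.22 and 12.14 in control and at 12.82, 13.07 and 12.19 in CNT cultures. CNT 3 was at the level of control 2 and 3, and the log2 fold change of 0.80 (SE 0.32) was 0.52 without control 1 and 0.33 without control 1 and CNT 2, where it was no longer at an unadjusted p under 0.05. Lcp1, which bundles actin, had a log2 fold change of 0.52 (SE 0.30) and Lcp2, an adaptor of immune receptor signalling, one of 0.30 (SE 0.31).

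The 4 genes of leukocyte membrane proteins differed less, with a median of 0.35. Ptprc, the CD45 phosphatase of all leukocytes, had a log2 fold change of 0.47 (SE 0.30), with 11.23 to 12.33 in control and up to 12.45 in CNT cultures. A second Ptprc probe set gave 0.34 (SE 0.63). The tetraspanin genes Cd53 and Cd37 had log2 fold changes of 0.41 (SE 0.23) and 0.30 (SE 0.35), and the lysosomal protein gene Laptm5 of 0.27 (SE 0.25). Control 1 was the lowest of the 6 arrays for all 4. In Cd37 CNT 3 (10.87) was close to control 1 (10.75).

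Of the phagosome and lysosome genes, all 4 were positive with a median of 0.45. Lyz2, the lysozyme of macrophages, was at 13.74, 14.03 and 14.48 in control and at 14.59, 14.55 and 14.53 in CNT cultures. The CNT cultures were nearly equal (SD 0.03, n = 3) and all just above control 3, and the log2 fold change of 0.47 (SE 0.19, adjusted p = 0.999 from limma) was 0.30 without control 1. Cybb, the membrane subunit of the phagocyte NADPH oxidase, was at 12.16, 12.85 and 13.41 in control and at 13.70, 13.55 and 13.27 in CNT cultures, a log2 fold change of 0.70 (SE 0.32). CNT 3 lay below control 3, so the groups overlapped, and the difference was 0.38 without control 1. A second Cybb probe set gave 0.49 (SE 0.70). Ncf1, a cytosolic subunit of that oxidase, had a log2 fold change of 0.12 (SE 0.45), which was -0.27 without control 1. Cd68, the endosomal sialomucin used as a phagocyte stain, had a log2 fold change of 0.42 (SE 0.24), with 13.06 to 13.99 in control and 13.81 to 14.10 in CNT cultures.

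The genes of tissue macrophages among the 30, 3 of them scavenger receptors, were 2 positive and 2 negative, and the positive ones, Cd163 and F13a1, were dim. A longer list of tissue macrophage genes had 9 of 10 positive, with a median of 0.41. The 4 measured genes had a median of 0.03 and the smallest SD between CNT cultures of the roles (0.09 for their mean). Stab1, which clears modified lipoproteins and matrix fragments, was at 12.81, 13.36 and 12.92 in control and at 12.21, 12.97 and 12.17 in CNT cultures. CNT 1 and CNT 3 lay below every control culture and CNT 2 did not, and the log2 fold change was -0.58 (SE 0.26, 95% interval -1.22 to 0.06). It was negative under every alternative tried, from -0.95 without control 1 and CNT 2 to -0.41 without control 2. Mrc1, the mannose receptor, was at 11.87, 12.52 and 12.78 in control and at 12.27, 12.48 and 12.38 in CNT cultures. Its log2 fold change was -0.01 (SE 0.24, 95% interval -0.59 to 0.57), with CNT values between those of control cultures. Cd163, a receptor for haemoglobin with haptoglobin, was at 4.50 to 4.63 in control and 4.55 to 4.87 in CNT cultures, and the factor XIII gene F13a1 at 5.12 to 5.36 and 5.23 to 5.46. Both belong to the dimmest 30% of genes, as do Csf2rb and Ncf1, where an array measures small differences poorly.

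Many genes of myeloid cells carry PU.1 sites close to their start, and the promoters of the genes are shown for that reason. Promoter windows from RefSeq (build GRCr8, 300 bases around the start, most of them before it) were found for 21 of the 35 genes, 19 of them measured. The letters GAGGAA, the core that PU.1 binds, were in 16 of the 21 windows on either strand (76.2%), against 27.5% of 27457 windows of this length. The letters GAAA, any 2 bases and GAAA again, of the interferon-stimulated element, were in 2 of the 21, Cybb and Ncf1, against 3.8% of all windows. A match describes the letters only. Below are the windows of Itgam and Cybb, which had positive log2 fold changes, of Lyz2, whose groups did not overlap, and of Stab1, with the lowest log2 fold change. Each is written 5′ to 3′ on the strand of the gene, with matches of either motif in capitals. None of the matches in these windows overlap between the motifs.
Itgam (chr1:192089342-192089641, plus strand): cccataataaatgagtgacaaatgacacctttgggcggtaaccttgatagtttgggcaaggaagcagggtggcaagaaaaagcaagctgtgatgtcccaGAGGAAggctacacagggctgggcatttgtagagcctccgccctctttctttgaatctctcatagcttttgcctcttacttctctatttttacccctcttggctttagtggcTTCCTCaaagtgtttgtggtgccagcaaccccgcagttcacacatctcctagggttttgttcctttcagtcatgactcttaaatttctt
Cybb (chrX:16065016-16065315, minus strand): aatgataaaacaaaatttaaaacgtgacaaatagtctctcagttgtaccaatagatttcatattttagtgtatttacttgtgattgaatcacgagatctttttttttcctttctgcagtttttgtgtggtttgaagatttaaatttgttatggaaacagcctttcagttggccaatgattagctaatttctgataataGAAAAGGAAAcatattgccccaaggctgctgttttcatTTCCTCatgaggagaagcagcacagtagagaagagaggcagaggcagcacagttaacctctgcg
Lyz2 (chr7:54797962-54798261, minus strand): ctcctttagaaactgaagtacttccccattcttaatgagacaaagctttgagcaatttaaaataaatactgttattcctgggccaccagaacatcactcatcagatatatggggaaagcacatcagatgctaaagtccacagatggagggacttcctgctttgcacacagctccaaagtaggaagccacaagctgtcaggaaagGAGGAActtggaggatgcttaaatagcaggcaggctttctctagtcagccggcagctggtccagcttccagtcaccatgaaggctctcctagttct
Stab1 (chr16:6367310-6367609, minus strand): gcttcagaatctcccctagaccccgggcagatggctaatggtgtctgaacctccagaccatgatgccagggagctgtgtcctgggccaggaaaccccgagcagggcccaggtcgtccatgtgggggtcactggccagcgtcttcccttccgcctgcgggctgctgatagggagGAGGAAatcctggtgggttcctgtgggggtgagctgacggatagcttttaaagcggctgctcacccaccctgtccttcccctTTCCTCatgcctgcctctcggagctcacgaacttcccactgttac
Counted from the start of the gene, the leftmost base of the GAGGAA match nearest to it was at -39 in Itgam, -14 in Cybb, -46 in Lyz2 and 6 in Stab1. So the core was present in the window of the gene with the lowest log2 fold change as well as in those of genes with positive ones.

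Other genes of the myeloid programme were examined from lists of the same kind. Over all genes, 58.5% were positive, 2.41% were at an unadjusted p under 0.05 as higher and 0.71% as lower. Of 22 myeloid signalling genes, 21 were positive (median 0.41), 4 at an unadjusted p under 0.05 as higher and none lower. Ncf4, a cytosolic subunit of the phagocyte oxidase, had a log2 fold change of 0.83 (SE 0.19), and the kinase genes Fgr and Btk of 0.73 (SE 0.19) and 0.71 (SE 0.25). For each of the 3, all CNT cultures lay above all control cultures. Of 24 myeloid surface genes, 23 were positive with a median of 0.52, and 5 were at an unadjusted p under 0.05 as higher and none lower. Among them Tlr4, the receptor for endotoxin, had a log2 fold change of 0.58 (SE 0.16), Ly86, an accessory protein of a relative of Tlr4, of 0.97 (SE 0.26), and Cd14, the endotoxin co-receptor, of 0.63 (SE 0.19). All 10 phagocyte products were positive with a median of 0.27, with 0.96 (SE 0.42) for the lipase gene Lpl and 0.57 (SE 0.27) for the cathepsin gene Ctsz, while the complement genes C1qa, C1qb and C1qc had 0.15, 0.11 and 0.07. Control 1 had the lowest mean of the 6 arrays in all 3 lists, from -0.90 to -0.68. No gene of these lists passed the adjusted test.

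A list of ligands and related genes had no common difference, and 8 of its 16 genes, Il34 included, were among the dimmest 30%. Not all of its genes encode ligands of receptors among the 30 (Tgfb1, Tgfb2, Cd200, Cd47, Il4, Il13, Il10 and Entpd1 do not). Csf1 and Il34, the ligands of Csf1r, had log2 fold changes of 0.15 (SE 0.17) and 0.07 (SE 0.28), and Cx3cl1, the ligand of Cx3cr1, of 0.07 (SE 0.12). Of the 16 genes of the list, 12 were positive with a median of 0.07. Tgfb1, a growth factor needed for the resting state of microglia, was the 1 gene of the list at an unadjusted p under 0.05, with 10.80 to 10.98 in control and 11.12 to 11.65 in CNT cultures (a difference of 0.48, SE 0.15, with a limma adjusted p of 0.999). Tgfb2, a related factor, had every CNT culture below every control culture (log2 fold change -0.56, SE 0.26). Cd200, the ligand of an inhibitory receptor of microglia, varied within both groups, from 9.71 to 11.02 in control and from 9.67 to 10.97 in CNT cultures.

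Markers of other leukocytes, which share Ptprc, Coro1a and Itgb2 with microglia, were mostly among the dimmest 30% of genes. This held for all 4 B cell and all 10 natural killer and mast cell genes, for 7 of 10 T cell genes and for 4 of 6 neutrophil genes. The T cell receptor genes Cd3e, Cd3d and Cd3g had log2 fold changes of 0.15, 0.05 and 0.12, and the better measured Cd8a and Cd8b of 0.41 (SE 0.65) and 0.19 (SE 0.51). All 10 T cell, all 4 B cell, 9 of 10 natural killer and mast cell and all 9 endothelial genes were positive as well. The mean of the T cell list ranged from -0.23 to 0.07 in control and from -0.13 to 0.23 in CNT cultures. Lck, a kinase of T cells, had a log2 fold change of 0.45 (SE 0.16). The B cell mean ranged from -0.21 to 0.07 and from -0.10 to 0.11, that of natural killer and mast cells from -0.08 to -0.0039 and from -0.02 to 0.09, and that of neutrophils from -0.38 to 0.26 and from -0.15 to 0.29. Their part in the values of shared genes was not tested. Of 12 proliferation genes all were positive with a median of 0.12, and their mean was highest in control 3 (0.31) and CNT 3 (0.36). The medians were -0.08 for 12 neuron, -0.09 for 10 astrocyte, 0.05 for 10 oligodendrocyte and 0.16 for 9 endothelial genes, and no list held a gene past the adjusted test.

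**Figure D5:**
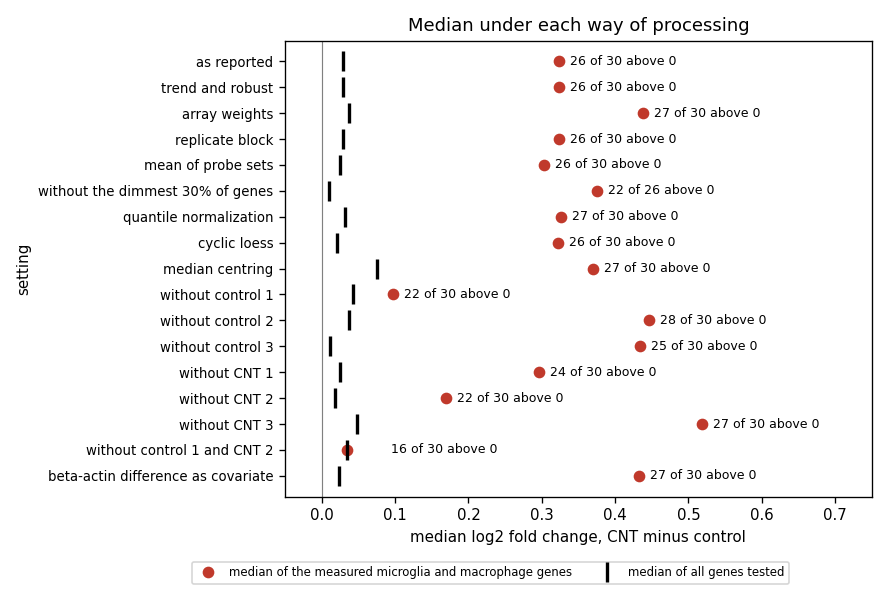
Median log2 fold change (CNT minus control) of the microglia and macrophage genes (red) and of all genes tested (black bars) under each way of processing, with the number of the genes above 0. The red points lie between 0.30 and 0.52 except without control 1 (0.10), without CNT 2 (0.17) and without both (0.04).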

How the data were processed

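Total RNA of 6 cultures (100 ng each) was amplified, labelled and hybridized to Affymetrix rat arrays. The authors deposited log2 expression made with RMA, per the labels, for the manufacturer's probe sets, while the methods name EntrezGene custom files. The version of RMA is not given in the sources used here, and depth does not apply, since the number of arrays limits the precision. Values were not normalized again. Of 31099 probe sets, 20826 were paired with 1 gene, 436 with several and 9780 with none, and 57 were controls. These last 3 kinds were left out, and for each of the 14217 genes the probe set of highest mean was taken.

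The groups were compared with limma 3.58.1 (lmFit, eBayes; R 4.3.3) without pairing. P-values were adjusted by Benjamini-Hochberg across the 14217 genes, at a threshold of 0.05. Tested on simulated data, the fit recovered the fold changes put in. This checks the calculation only, since the simulation held no differences between arrays that genes share. The methods' rank product was run in closed form over pairs of equal number as an alternative. Replicates are labelled biological, and the methods call them culture series, 3 for each condition. No source says whether these share animals, so p-values measure the spread between these cultures.

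The genes and lists, and all comparisons, were chosen with earlier results of these data known. All measured genes of the list were named, and of other lists up to 3 genes of smallest unadjusted p. Genes outside this rule, such as Csf1, Il34, Cx3cl1, the Cd3 and the C1q genes and those of the closing section, were named after their values were seen. Alternatives were array weights, a robust fit with trend, a block for the replicate number, averaged probe sets, leaving out dim genes or single arrays, other normalizations, and the beta-actin difference.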

Additional observations from a re-analysis of the deposited data

How the results depend on the processing

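Of 484 values of the 30 genes under the alternatives, 449 kept their direction, 35 turned and none passed the adjusted test, and 16 of the 30 genes kept their direction in all. The number of the 30 genes at an unadjusted p under 0.05, 3 as reported and all higher, was 1 with quantile normalization (2.62% of all genes higher), 8 with the beta-actin difference as a covariate, all higher (2.29%), and 1 to 10 as each array was left out, the highest without control 3, with 9 higher (4.71%) and Tmem119 lower (1.53%). Without control 1 and CNT 2 it was 2, with Fcgr1a higher (0.513% of all genes) and Stab1 lower (0.302%). The number with a positive log2 fold change, 26 as reported, was 16 without control 1 and CNT 2, where 59.7% of all genes were positive. Their median was 0.10 to 0.52 as each array was left out, lowest without control 1 and highest without CNT 3. Without the genes of tissue macrophages among the 30, F13a1 included, it was 0.37. The number of all genes past the adjusted test was 0 to 2 as each array was left out, the 2 without control 3, and 78 in the rank product.

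Without control 1 and CNT 2 the log2 fold change turned to -0.25 for Cx3cr1, 0.034 for Tmem119, -0.084 for Gpr34, -0.17 for Csf1r, -0.14 for Csf2rb, -0.025 for Fcer1g, -0.14 for Fcgr2b, -0.030 for Aif1, -0.17 for Lcp2, -0.16 for Cd37, -0.088 for Laptm5 and -0.40 for Ncf1. As each array was left out it ranged from -0.16 to 0.54 for Cx3cr1, from -0.43 to 0.23 for P2ry12, from -0.039 to 0.60 for Csf1r, from -0.045 to 0.25 for Csf2rb, from -0.059 to 0.49 for Fcgr2b, from -0.27 to 0.46 for Ncf1 and from -0.27 to 0.19 for Mrc1. Mrc1 turned to 0.0023 with quantile normalization, 0.037 with median centring and 0.12 with the covariate, P2ry12 to 0.050 with array weights, and Aif1 to -0.014 in its second probe set. The cause was not tested.

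Over all genes, 342 were higher and 101 lower at an unadjusted p under 0.05. These became 209 and 64 without control 1, 670 and 218 without control 3, 153 and 53 if CNT 2 was left out, 515 and 412 if CNT 3 was, 73 and 43 if both control 1 and CNT 2 were, 532 and 223 with array weights, and 546 and 54 with median centring. No source says whether culture numbers pair the samples. The deviations of equal numbers from their group means correlated across genes, which are not independent replicates, at -0.127, 0.361 and 0.513, and control 2 correlated best with CNT 1 (0.683). With the replicate block the median was 0.32, 26 genes were positive, 498 genes were higher and 179 lower, and none passed the adjusted test. At an unadjusted p under 0.05 it gave 3 of the 30 genes higher and Stab1 lower.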

Other observations

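Some macrophage genes outside the list of 30 varied between cultures by far more than the listed ones. Cd5l, a secreted macrophage protein gene, was at 7.22, 6.17 and 12.33 in control and at 9.86, 9.96 and 11.01 in CNT cultures 1, 2 and 3. Cd36, a scavenger receptor for lipids, was at 7.94, 9.09 and 12.93 in control and at 11.86, 11.49 and 12.19 in CNT cultures. Mmp12, the macrophage elastase, was at 7.77, 8.83 and 13.15 in control and at 11.46, 11.41 and 13.39 in CNT cultures, and the chemokine receptor gene Ccr1 at 6.23, 7.32 and 10.28 and at 9.74, 10.49 and 10.46. In each of the 4 genes, control 3 lay within or above the CNT values while control 1 and control 2 lay below all of them, and in Cd5l, Cd36 and Mmp12 the standard errors (1.57, 1.23 and 1.43) were large beside the log2 fold changes (1.70, 1.86 and 2.17). The log2 fold change of Ccr1 was 2.29 (standard error 1.00).

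Of 10 tissue macrophage genes, 9 were positive (median log2 fold change 0.41), and their mean was -0.72, -0.87 and 0.53 in control and 0.09, 0.41 and 0.57 in CNT cultures. Lyve1, a hyaluronan receptor of macrophages near vessels and of lymphatic vessels, was the 1 gene of this list at an unadjusted p under 0.05. It was at 8.55, 7.49 and 7.52 in control and at 9.42, 10.37 and 8.87 in CNT cultures (a difference of 1.70, SE 0.46, with a limma adjusted p of 0.999). All CNT cultures lay above all control cultures. Stab1, often found beside Lyve1 on such macrophages, had a log2 fold change of -0.58 in the same cultures. The difference between the 2 genes was not tested.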
